A study of Mus musculus with 4 samples.

Results

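The 10 genes described here, Apoe, Trem2, Spp1, Gpnmb, Fabp5, Lpl, Cd9, Lgals3, Ctsd and Ctsl, are those by which lipid-associated macrophages are usually recognised. They were taken as a given list of 10 of the 32285 genes counted. The list was chosen with earlier results of these data known. All 10 were followed across macrophage subsets, monocytes and dendritic cells of mouse tumours. The cells were live CD45-positive leukocytes sorted from subcutaneous KPC tumours of young adult male C57BL/6NHsd mice, harvested on the same day of treatment in every group. KPC cells are a pancreatic cancer line from mice with KRASLSL.G12D/+P53LSL.R172H/+Pdx-Cre alleles, in which Cre driven by the pancreatic Pdx promoter switches on the mutant genes. The line carries those alleles in every group, and tumour cells themselves were to be removed by the sort. Mice were untreated, or received a STING agonist (ADU-S100, a synthetic cyclic dinucleotide injected once into the tumour), an LTbR agonist (4H8, a lymphotoxin-β receptor-activating antibody, given repeatedly into the peritoneum), or both. Tumours of a group were pooled before the sort and each group had 1 library. There is therefore no value per mouse and no replicate check of any difference below. All intervals are 95% intervals that cover counting error only, and no p-value is given.

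Lipid-associated macrophages arise in fat, atherosclerotic arteries, injured nerve and tumours, where macrophages take up lipid from dying cells and debris. Trem2, a surface receptor for lipids and lipoproteins that signals through the adaptor Tyrobp, is needed for the full state in several of these tissues. The state combines lipid carriers and lipases with lysosomal enzymes and secreted matrix proteins, and in tumours such cells are often described as immunosuppressive.

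Cells were clustered without the 10 genes among the clustering genes, and clusters were named from marker genes. A macrophage- or monocyte-like class of 9234 cells was obtained, of which 3044 were from untreated tumours, 1472 from tumours with the STING agonist, 2904 with the LTbR agonist and 1814 with both agonists. Dendritic-like cells were 741, 248, 486 and 283 in the same order. Levels are UMIs (unique molecules) of a gene per 1000000 UMIs of the class or subset (CPM). The class held 14409070 to 27452485 UMIs per library, with a median of 7382 to 10308 UMIs per cell. All 10 genes had at least 50 UMIs in the class in every library. Markers of tumour epithelium summed to 2.36 to 3.90 CPM in the class over 8 genes, with 1 or 2 of them at 0, and fibroblast markers to 1.78 to 4.69 CPM over 6 genes. T cell markers summed to 7.69 to 18.8 CPM over 9 genes, none at 0. Neutrophil markers summed to more, 626 to 944 CPM over 8 genes. Endothelial markers gave 52.1 to 76.8 CPM over 5 genes and natural killer cell markers 43.1 to 60.4 CPM over 8. B and plasma cell markers gave 16.1 CPM untreated, 15.2 with the STING agonist, 32.9 with the LTbR agonist and 53.0 with both, over 8 genes. In their own subset, 5 of 8 C1q, 5 of 8 inflammatory, 6 of 9 resident and 7 of 9 interferon macrophage markers had their highest level, as did 5 of 9 Ly6c2 Vcan monocyte, 7 of 7 Ace Treml4 monocyte and 8 of 8 mature dendritic markers. The make-up of the class differed between libraries. C1q macrophage-like cells were 651, 344, 119 and 63 in the untreated, STING agonist, LTbR agonist and both-agonist libraries. Inflammatory macrophage-like cells (Nos2, Inhba) were 237, 126, 545 and 221, and resident-like macrophages (Mrc1, Pf4) were 51, 68, 174 and 320. Pf4, however, was among the leading genes of the C1q macrophage-like cluster and not of the resident-like one. Ccl24, a gene of the resident list, led the inflammatory cluster, where Nos2 and Inhba were not among the leading genes.

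The upstream sequences of the 4 members below are shown because Apoe and Trem2 were lower and Spp1 higher by more than 1.5-fold in the LTbR agonist library, with Gpnmb, which was not, beside them. Each run is the 250 bases before the RefSeq start of the transcript on build GRCm38.p6, 5′ to 3′ on the gene's strand, and none overlaps the annotated gene. Capitals mark the motif GAGGAAGT, the core by which the myeloid factor PU.1 is often recognised. Spp1 lies at chr5:104435118-104441050 on the plus strand and the window at chr5:104434861-104435110. Gpnmb lies at chr6:49036546-49070929 (plus) and its window at chr6:49036268-49036517. Apoe lies at chr7:19696109-19699188 (minus) and its window at chr7:19699189-19699438. Trem2 lies at chr17:48346401-48354147 (plus) and its window at chr17:48346151-48346400.
Spp1: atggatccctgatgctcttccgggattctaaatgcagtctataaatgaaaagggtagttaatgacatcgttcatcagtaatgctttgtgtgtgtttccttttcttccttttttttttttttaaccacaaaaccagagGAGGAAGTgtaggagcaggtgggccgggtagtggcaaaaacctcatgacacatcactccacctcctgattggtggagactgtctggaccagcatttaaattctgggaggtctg
Gpnmb: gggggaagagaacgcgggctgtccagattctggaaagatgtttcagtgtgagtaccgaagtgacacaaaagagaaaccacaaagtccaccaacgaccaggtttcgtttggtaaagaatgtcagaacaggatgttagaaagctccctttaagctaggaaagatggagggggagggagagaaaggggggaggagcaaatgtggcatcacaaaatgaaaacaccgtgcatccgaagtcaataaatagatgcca
Apoe: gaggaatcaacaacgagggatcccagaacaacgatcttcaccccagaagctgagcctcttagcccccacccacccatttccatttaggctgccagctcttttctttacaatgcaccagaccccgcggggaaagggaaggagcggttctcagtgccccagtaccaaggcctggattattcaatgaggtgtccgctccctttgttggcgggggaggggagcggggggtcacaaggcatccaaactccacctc
Trem2: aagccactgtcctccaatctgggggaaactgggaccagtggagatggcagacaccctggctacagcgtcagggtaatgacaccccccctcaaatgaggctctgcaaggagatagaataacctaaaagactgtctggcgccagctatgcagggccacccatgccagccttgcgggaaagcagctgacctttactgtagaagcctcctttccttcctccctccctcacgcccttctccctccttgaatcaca
The following 4 motifs were searched on both strands of all 32851 upstream windows of that length. The E-box CACGTG stood in 6.02% of them, the M-box TCATGTG in 3.25%, the AP-1 motif TGAGTCA in 4.46% and GAGGAAGT in 2.44%. Of the 11 windows of the 8 members with an entry, GAGGAAGT stood in 1, that of Spp1, where it began 113 bases before the start. CACGTG stood in a window of Ctsd and a window of Ctsl, which overlap the annotated genes and are not printed. The M-box and the AP-1 motif stood in none of the 11. A match is a description of letters, not of a bound site.

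Across the 10 named subsets, 7 of the 10 genes had their highest level in a macrophage-like subset when subsets were ordered by the median of the 4 libraries. Apoe, Trem2 and Ctsd were highest in C1q macrophage-like cells, Spp1, Cd9 and Lgals3 in inflammatory macrophage-like cells, and Lpl in resident-like macrophages. Fabp5 was highest in mature dendritic-like cells, and Ctsl and Gpnmb in plasmacytoid dendritic (pDC)-like cells. Because these subsets were found in the same cells, their levels are a description and not a test. Apoe, Trem2, Spp1, Cd9 and Lpl were also among the 10 leading genes of the clusters in which they were highest. The 10 genes thus did not mark 1 common named subset. The mean of their standardised log2 levels was higher in unnamed cluster 10, described below, at 0.88, 1.18, 0.86 and 0.87 in the 4 libraries. That was above every named subset with at least 50 cells, where C1q macrophage-like cells had 0.36, 0.61, 0.63 and 0.49. The place of Lgals3 rests on a median of 1875 CPM against 1861 CPM in cDC1-like cells, so that the count of 7 holds only with that narrow lead. With 119 cDC1-like cells and 249 pDC-like cells in all, levels in these subsets rest on the fewest cells.

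**Figure D1:**
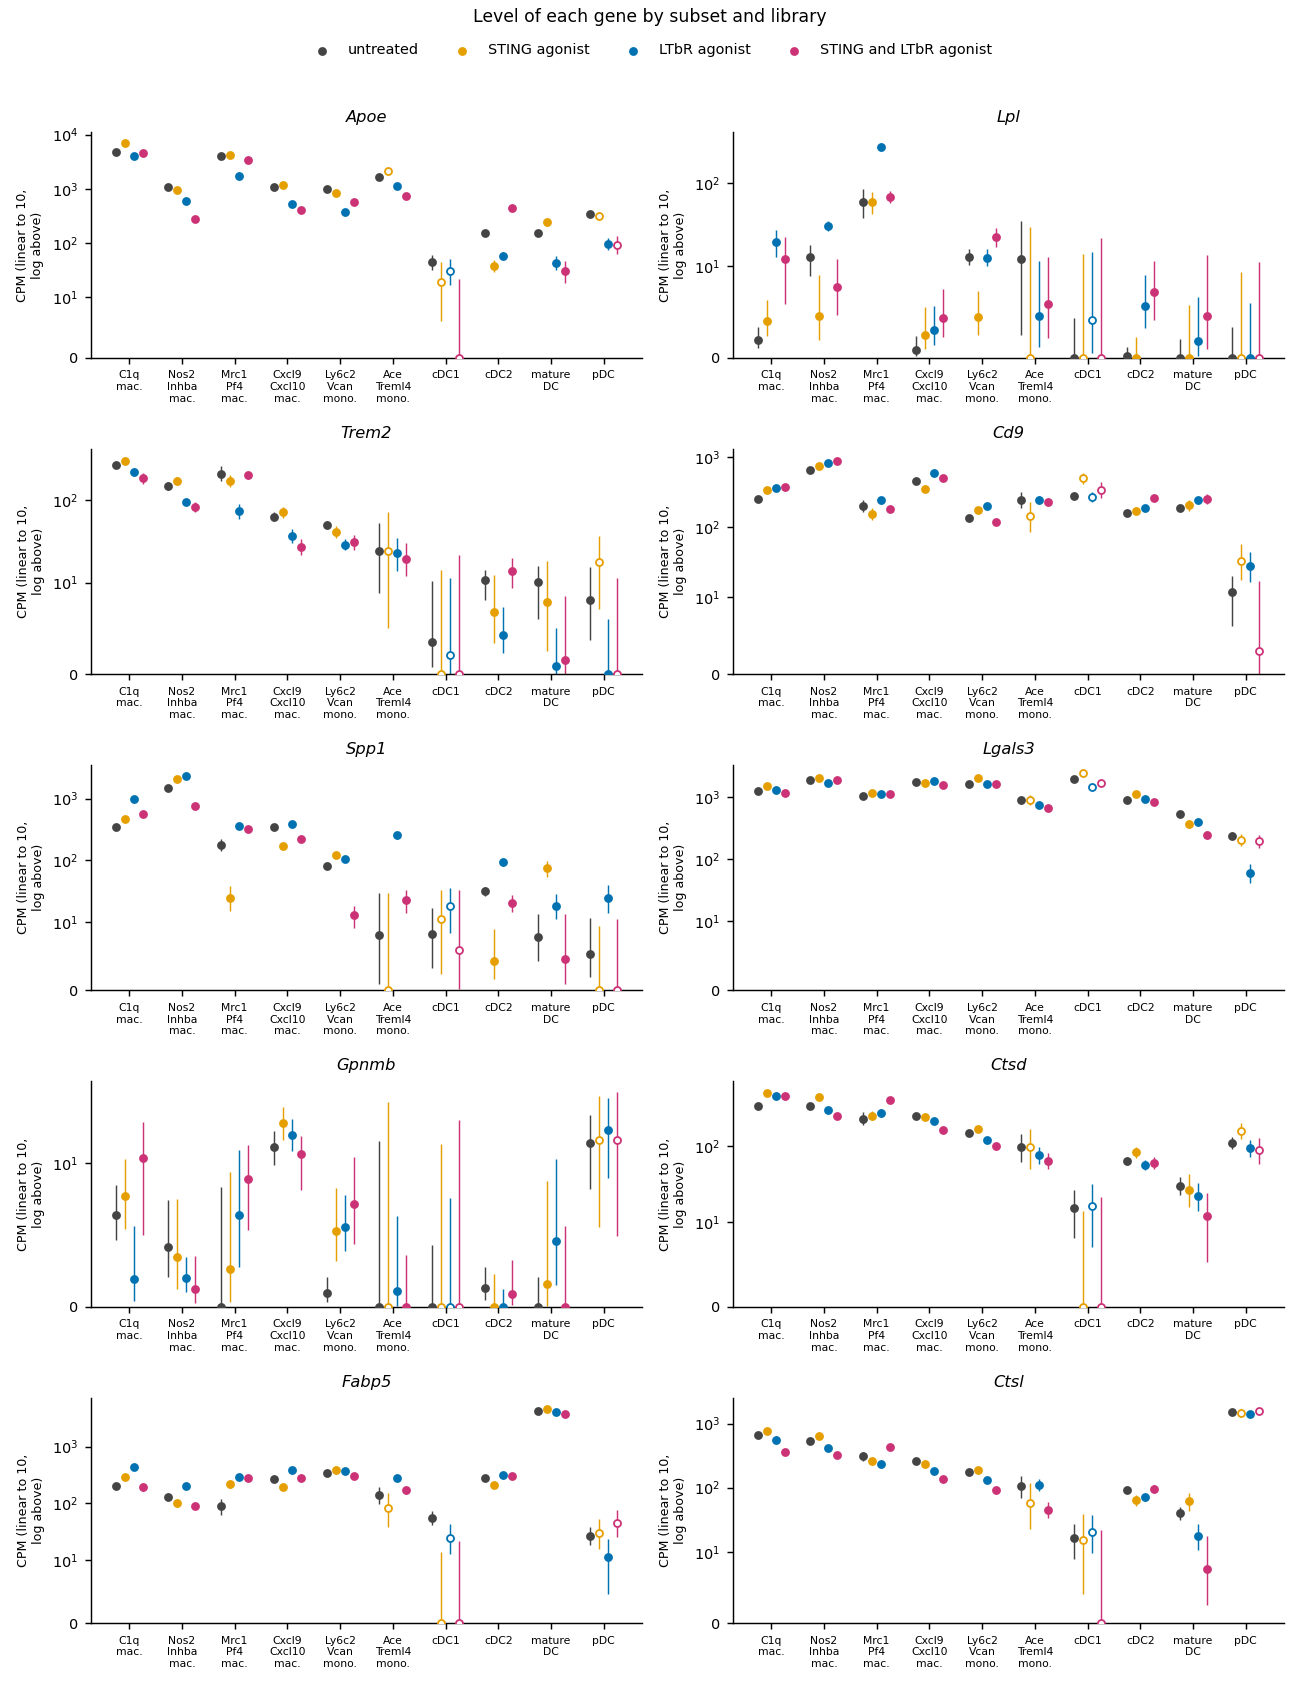
Level of each gene (CPM, logarithmic axis) in each named subset, with 1 point per library in the colour of its group. Fabp5 stands at 3688 to 4554 CPM in mature dendritic-like cells and at or below 436 CPM in every other named subset, while Lpl is highest in resident-like macrophages in each library.

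Apoe encodes apolipoprotein E, the lipid carrier by which macrophages export cholesterol. Its level in C1q macrophage-like cells was 4819, 6869, 3975 and 4664 CPM in the untreated, STING agonist, LTbR agonist and both-agonist libraries. In resident-like macrophages it was 4064, 4159, 1718 and 3374 CPM, below the C1q value of the same library in 4 of 4 libraries, although the ranges of the 2 subsets overlapped. Inflammatory and interferon (Cxcl9, Cxcl10) macrophage-like cells held 274 to 1180 CPM, and cDC2-like and mature dendritic-like cells 30.6 to 444 CPM. An unnamed cluster of 189 cells led by Ccl8, Vcam1 and C4b had 15346, 23182, 9953 and 13928 CPM, above every named subset in each library. These values rest on 42, 12, 95 and 40 cells, so that only the LTbR agonist library had at least 50.

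Lpl encodes lipoprotein lipase, which frees fatty acids from circulating triglyceride. It was highest in resident-like macrophages, where 26, 45, 342 and 145 UMIs gave 58.5, 58.5, 275 and 67.6 CPM. The median there was 4.96 times that of the next subset, and the library ranges of the 2 did not overlap. Inflammatory macrophage-like cells gave 8 to 185 Lpl UMIs per library, and C1q and interferon macrophage-like cells 3 to 30. No Lpl UMI was found in pDC-like cells, and at most 17 per library in any other dendritic-like subset.

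Fabp5, a cytosolic fatty acid-binding protein, followed another pattern. Mature dendritic-like cells (Ccr7, Fscn1) held 4173, 4554, 4012 and 3688 CPM (2412 to 7425 UMIs), 11.6 times the median of the next subset. Within the class, monocyte-like cells with Ly6c2 and Vcan had 301 to 393 CPM, at or above the C1q macrophage-like values in 3 of 4 libraries. Fabp5 has processed copies elsewhere in the mouse genome, so that some of its reads may not be assigned uniquely.

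Trem2 is the lipid receptor of the list. C1q macrophage-like cells held 264, 295, 221 and 183 CPM, resident-like macrophages 209, 172, 73.1 and 200 CPM, and inflammatory macrophage-like cells 149, 169, 95.7 and 81.8 CPM. The order of C1q and resident-like cells turned under both agonists, so that these neighbours cannot be ranked in every library. Monocyte-like and interferon macrophage-like cells stayed between 19.4 and 71.3 CPM, and dendritic-like subsets at or below 17.7 CPM.

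Gpnmb, a transmembrane glycoprotein of endosomes and lysosomes, was scarce. It gave 271, 254, 336 and 227 UMIs in the whole class, or 9.87, 16.5, 13.9 and 15.8 CPM. Interferon macrophage-like cells held 11.7 to 20.6 CPM and pDC-like cells 14.4 to 17.9 CPM (5 to 16 UMIs), values that could not be told apart. The unnamed cluster 10, with 500 cells, was led by heat shock genes such as Hspa1b and had Gpnmb among its 10 leading genes. It held 127, 266, 80.4 and 196 CPM. That cluster thus had more Gpnmb than any named subset in every library. Heat shock genes rise when cells are handled or warmed, and their summed level in the class was 123, 201, 525 and 233 CPM over 4 genes. Their part in the Gpnmb level was not tested.

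Cd9, a tetraspanin of the cell surface, was highest in inflammatory macrophage-like cells at 662, 764, 821 and 899 CPM, 1.64 times the median of interferon macrophage-like cells. The ranges of these neighbours did not overlap. Outside the class, neutrophil-like cells had 902 to 1496 CPM, so that Cd9 was not particular to macrophages.

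Spp1 encodes osteopontin, a secreted protein that binds integrins and CD44. Inflammatory macrophage-like cells held 1471, 2084, 2308 and 757 CPM, 3.45 times the median of the next subset. C1q macrophage-like cells followed with 351, 468, 985 and 561 CPM, and the ranges of the 2 subsets overlapped. T-like cells, sorted from the same tumours, also gave 222, 327, 100 and 147 CPM.

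Lgals3, the β-galactoside-binding lectin galectin-3, was abundant in nearly all myeloid subsets. Its median was 1875 CPM in inflammatory macrophage-like cells, 1.01 times that of the next subset, so no subset can be called highest. The lowest levels were in pDC-like cells at 60.2 to 242 CPM. The cluster led by heat shock genes again exceeded all named subsets, with 2987 to 5230 CPM.

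Ctsd and Ctsl encode the lysosomal proteases cathepsin D and cathepsin L. Ctsd in C1q macrophage-like cells was 334, 494, 450 and 450 CPM, and in inflammatory macrophage-like cells 337, 447, 302 and 245 CPM, with overlapping ranges. T-like cells held 260 to 415 CPM of Ctsd, about as much as the class with 267 to 355 CPM. Ctsl was highest in pDC-like cells at 1534, 1464, 1398 and 1589 CPM, 2.45 times the median in C1q macrophage-like cells, and its ranges did not overlap those of any other named subset.

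The next question was how each agonist, alone or with the other, shifted the 10 genes in the macrophage- or monocyte-like class. Differences are log2 ratios of (CPM + 10) over the untreated library, which understate changes of low genes, and a gene was called higher or lower past a 1.5-fold ratio. Under the STING agonist no member was called in either direction. With the LTbR agonist, Spp1 and Lpl were higher and Apoe and Trem2 lower. Under both agonists Lpl was higher and Ctsl lower.

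For the STING agonist, 0 of 10 members were higher and 0 of 10 lower, where 0.134% of 10466 genes with at least 50 UMIs in 1 of the libraries compared were higher and 0.0669% lower. For the LTbR agonist, 2 of 10 were higher against 0.902% of 10639 genes, and 2 of 10 lower against 0.526%. For both agonists, 1 of 10 was higher against 1.70% of 10525 genes, and 1 of 10 lower against 0.988%. Because the members were chosen with earlier results of these data known, these counts are a description and not a test. The median log2 ratio of the members was 0.22, 0.20 and -0.04 for the STING agonist, the LTbR agonist and both, beside 0.01, 0.01 and 0.03 over all genes.

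Spp1 was the member that separated the LTbR agonist from all other groups. Its class level was 372 CPM (365 to 379) untreated, 490 CPM (479 to 501) after the STING agonist, 986 CPM (974 to 999) after the LTbR agonist and 341 CPM (331 to 350) with both. The LTbR agonist library was the only one above 500 CPM. The log2 ratio over untreated was 1.38 (1.34 to 1.43) for the LTbR agonist, 0.39 (0.33 to 0.45) for the STING agonist and -0.12 (-0.19 to -0.06) for both. Set against the LTbR agonist alone, both agonists gave -1.51 (-1.56 to -1.45). On the log2 scale, the ratio under both agonists lay 1.90 below the sum of the ratios of the single agonists, where the other 9 members lay between 0.49 below and 0.05 above it.

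Lpl rose with each treatment that held the LTbR agonist. It was 6.27 CPM (5.36 to 7.27) untreated and 6.45 CPM (5.24 to 7.85) with the STING agonist, against 30.5 CPM (28.3 to 32.7) with the LTbR agonist and 19.3 CPM (17.1 to 21.7) with both. The log2 ratio was 1.31 (1.15 to 1.48) for the LTbR agonist and 0.85 (0.65 to 1.04) for both. That of the STING agonist was 0.02 (-0.18 to 0.22). These rest on 734 and 278 UMIs in the treated libraries and 172 in the untreated one.

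Apoe and Trem2, the carrier and the receptor, moved the other way. Apoe was 2588 CPM (2569 to 2607) untreated, 3274 CPM (3245 to 3303) after the STING agonist, 1444 CPM (1429 to 1459) after the LTbR agonist and 1898 CPM (1875 to 1920) with both. Trem2 was 143 CPM (139 to 148), 161 CPM (155 to 168), 83.2 CPM (79.6 to 86.9) and 92.9 CPM (87.9 to 98.0) in the same order. For both genes the 2 libraries with the LTbR agonist lay below the 2 without it. The log2 ratio with the LTbR agonist was -0.84 (-0.86 to -0.81) for Apoe and -0.72 (-0.82 to -0.62) for Trem2. Under both agonists the ratios of -0.45 (-0.47 to -0.42) and -0.57 (-0.69 to -0.46) did not reach the 1.5-fold mark. The summed C1q marker list (8 genes) moved alongside, at 5310, 6036, 3579 and 4039 CPM in the class, and whether it accounts for the Apoe and Trem2 values was not tested.

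Ctsl was 419 CPM (411 to 427), 477 CPM (466 to 488), 291 CPM (284 to 298) and 248 CPM (240 to 256), lowest with both agonists. Its log2 ratio was -0.51 (-0.57 to -0.45) under the LTbR agonist and -0.73 (-0.81 to -0.66) under both. Ctsd, the other protease, had log2 ratios of 0.35, 0.05 and -0.04 for the STING agonist, the LTbR agonist and both.

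The remaining members stayed within 1.5-fold. Fabp5 had 0.56 (0.50 to 0.63) and Cd9 0.55 (0.49 to 0.60) under the LTbR agonist, both just short of the mark of 0.585. Gpnmb lay at 0.42 (0.22 to 0.62), 0.27 and 0.37, and Lgals3 at 0.22, 0.13 and -0.04. For Gpnmb the ratio with the STING agonist was 0.05 once the 10 cells with the most Gpnmb UMIs in each library were left out.

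**Figure D2:**
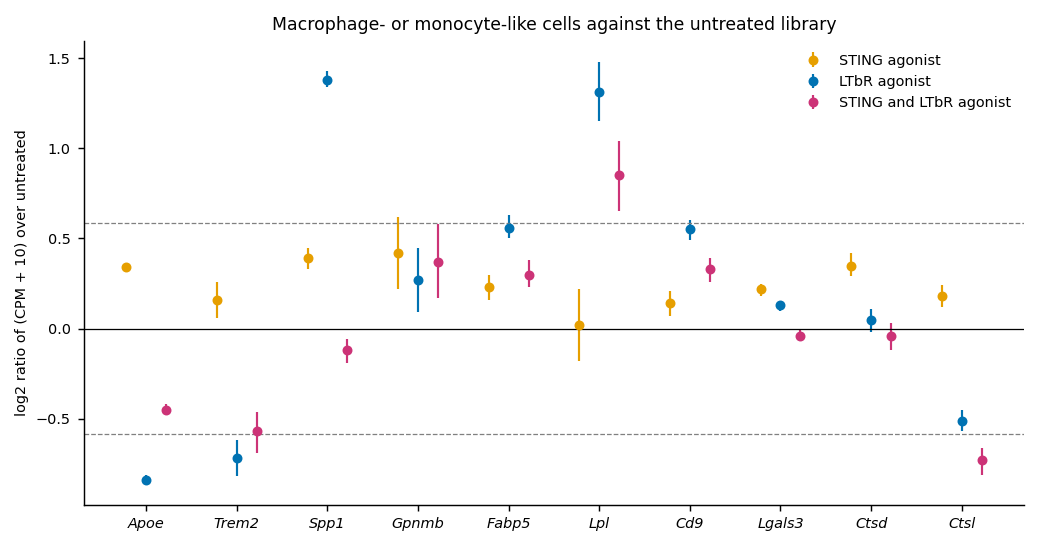
Log2 ratio of (CPM + 10) over the untreated library for each gene in the macrophage- or monocyte-like class, 1 point per treated library, with bars for 95% counting intervals and dashed lines at 1.5-fold. Spp1 stands at 1.38 with the LTbR agonist and at -0.12 with both agonists, while Apoe, Trem2 and Ctsl lie below 0 in both libraries that hold the LTbR agonist.

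Within the named subsets, differences were read where both libraries had at least 50 cells and the gene had at least 50 UMIs in 1 of them. Over such pairs of member and subset, 2 of 55 were higher and 5 of 55 lower under the STING agonist, where 1.37% and 1.13% of the pairs of all genes were. With the LTbR agonist 11 of 69 were higher against 2.34%, and 13 of 69 lower against 1.93%. Under both agonists 6 of 61 were higher against 3.71%, and 18 of 61 lower against 3.91%. Pairs of 1 gene share libraries and cannot be counted as independent. These counts too are a description of a list chosen with earlier results of these data known.

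Few pairs passed the fold with the STING agonist, and most of those rested on few molecules. Spp1 was lower in resident-like macrophages at 19 against 79 UMIs (-2.44, -3.22 to -1.63), in cDC2-like cells at 7 against 149 UMIs (-1.54) and in interferon macrophage-like cells at 404 against 1282 UMIs (between -1.21 and -0.79). The cDC2-like ratio of Spp1 was -0.36 without its 10 top cells per library. Apoe was lower in cDC2-like cells (-1.74) and Lpl in Ly6c2 Vcan monocyte-like cells (-0.66, from 16 against 82 UMIs), while Fabp5 was higher in resident-like macrophages (1.22, 0.59 to 1.86) and Apoe in mature dendritic-like cells (0.64), where it was -1.01 without the 10 top cells.

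Apoe under the LTbR agonist was below untreated in 9 of 9 named subsets and past 1.5-fold in 7. Among unnamed clusters with at least 50 cells in both libraries, it was -0.67 in cluster 10 and -1.55 in cluster 13. In unnamed cluster 6 (657 cells, median 1492 UMIs per cell) it was 0.03 (-0.11 to 0.17). The log2 ratio of Apoe reached -0.28 (-0.33 to -0.23) in C1q macrophage-like cells, -0.88 in inflammatory and -1.24 in resident-like macrophages. It was -1.04 in interferon macrophage-like and -1.41 in Ly6c2 Vcan monocyte-like cells. Trem2 was below untreated in 6 of 6 subsets and past the fold in 4, from -1.40 (-1.95 to -0.84) in resident-like macrophages to -0.25 in C1q macrophage-like cells. The C1q subset, where both genes were highest, had the smallest ratio of the subsets with at least 50 UMIs for each of them. Without the 10 top cells of each library its ratios were -0.58 for Apoe and -0.53 for Trem2. Ace Treml4 monocyte-like cells (-0.06) and resident-like macrophages (-0.41) for Apoe, and cDC2-like cells (-0.46) for Trem2, then lay nearer to 0. The removal was unequal, at 10 of 119 against 10 of 651 untreated C1q cells and 10 of 174 against 10 of 51 resident-like cells. The changed order therefore cannot be read as a ranking. In T-like cells, whose Apoe level was 31.1 CPM untreated, the Apoe ratio under the LTbR agonist was -0.75.

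Spp1 was above untreated in 7 of 7 subsets under the LTbR agonist and past the fold in 5. In C1q macrophage-like cells it went from 351 to 985 CPM, a log2 ratio of 1.46 (1.34 to 1.59), and in inflammatory macrophage-like cells from 1471 to 2308 CPM, or 0.65 (0.58 to 0.72). Without the 10 cells with the most Spp1 UMIs in each library these were 1.07 and 1.41. That removal was unequal too, at 10 of 119 against 10 of 651 C1q and 10 of 545 against 10 of 237 inflammatory macrophage-like cells. The largest ratio, 3.87 (2.56 to 4.77) in Ace Treml4 monocyte-like cells, set 224 UMIs, of which 99.6% lay in 10 of 184 cells, against 2 UMIs, and was 0.17 without those cells. The cDC2-like ratio of 1.30 was 0.07 without them. In T-like cells, by contrast, Spp1 fell from 222 to 100 CPM under the LTbR agonist, a log2 ratio of -1.07 (-1.22 to -0.93).

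With both agonists, Spp1 was lower in inflammatory macrophage-like cells at 757 CPM (-0.95, -1.06 to -0.84), in interferon macrophage-like cells (-0.65) and in Ly6c2 Vcan monocyte-like cells (-1.97), and higher in resident-like macrophages (0.79). The C1q macrophage-like ratio of 0.66 rested on 460 UMIs with 95.4% in 10 of 63 cells. It turned to -2.63 without the 10 top cells of each library, 10 of 63 against 10 of 651 untreated cells. With such unequal removal the turned sign cannot be read as a lower level. In resident-like macrophages the untreated library had 51 cells and 79 Spp1 UMIs, 91.1% of them in 10 cells.

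Apoe with both agonists was below untreated in 7 of 8 named subsets, 5 of them past the fold. It went from 1092 to 274 CPM in inflammatory macrophage-like cells (-1.95, -2.11 to -1.80), from 1080 to 405 CPM in interferon macrophage-like cells (-1.39) and from 1002 to 581 CPM in Ly6c2 Vcan monocyte-like cells (-0.78). In cDC2-like cells it went the other way, from 152 to 444 CPM (1.49, 1.30 to 1.68). So it did in unnamed cluster 6, from 3849 to 7777 CPM (1.01, 0.88 to 1.14), while unnamed clusters 10 (-1.98) and 13 (-1.18) were lower. Trem2 was lower in inflammatory (-0.79, -1.11 to -0.48) and interferon macrophage-like cells (-0.98, -1.37 to -0.58). In C1q macrophage-like cells Apoe stood at 4819 CPM untreated and 4664 CPM with both agonists, which is less than 1.5-fold apart.

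Ctsl under both agonists was below untreated in 5 of the 7 subsets with at least 50 UMIs, each past the fold. The log2 ratios were -0.86 (-1.06 to -0.66) in C1q, -0.70 in inflammatory and -0.87 in interferon macrophage-like cells, -0.90 in Ly6c2 Vcan monocyte-like cells and -1.50 in mature dendritic-like cells, the last from 5 against 71 UMIs. In resident-like macrophages it was 0.47 (0.14 to 0.80), and in cDC2-like cells 0.04. Ctsd was higher in resident-like macrophages (0.79, 0.42 to 1.16) and lower in interferon macrophage-like cells (-0.59) and, from 8 against 54 UMIs, in mature dendritic-like cells (-0.86). Cd9 was higher in cDC2-like cells, at 258 against 158 CPM (0.67, 0.46 to 0.89), and Lgals3 lower in mature dendritic-like cells, at 251 against 549 CPM (-1.10). The only other Lgals3 call within a named subset was in pDC-like cells under the LTbR agonist, at 37 against 269 UMIs (-1.84).

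In C1q macrophage-like cells, 8 of the 10 genes reached 50 UMIs in 1 of the libraries compared. Under the STING agonist 0 of 8 were called in either direction, where 0.672% of 8339 genes were higher and 0.312% lower. With the LTbR agonist Spp1 and Fabp5 were higher, 2 of 8 against 1.37% of 8320 genes, and 0 of 8 lower against 1.25%. Fabp5 went from 201 to 436 CPM there, a log2 ratio of 1.08 (0.90 to 1.26). It was 0.47 without its 10 top cells, an unequal removal of 10 of 119 against 10 of 651 cells. Under both agonists Spp1 was higher, 1 of 8 against 2.93% of 8319 genes, and Ctsl lower, 1 of 8 against 3.50%.

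Lpl had at least 50 UMIs in few subsets. In resident-like macrophages the LTbR agonist gave 275 CPM against 58.5 untreated, a log2 ratio of 2.05 (1.42 to 2.71), and both agonists 67.6 CPM, or 0.18 (-0.51 to 0.89). The untreated value rests on 26 UMIs, all of them in at most 10 of the 51 cells. In inflammatory macrophage-like cells the LTbR agonist ratio was 0.82 (0.37 to 1.26). In Ly6c2 Vcan monocyte-like cells Lpl had 82 UMIs untreated, 77 with the LTbR agonist (-0.01, -0.37 to 0.36) and 62 with both (0.50, 0.06 to 0.93), neither past the fold. Fabp5 in resident-like macrophages stood at 87.8 CPM untreated and at 217, 287 and 276 CPM with the STING agonist, the LTbR agonist and both, so that each treated library was higher, from 39 UMIs in the untreated one. T-like cells also held more Fabp5 under the LTbR agonist, at 58.6 CPM against 23.3 (1.04, 0.80 to 1.28). Of the members in resident-like macrophages, 1 of 8 was higher under the STING agonist against 6.19% of 2456 genes, and 1 of 8 lower against 2.97%. There, 3 of 9 were higher under the LTbR agonist against 9.34% of 3725 genes, and 2 of 9 lower against 2.82%. Both agonists gave 3 of 9 higher against 7.51% of 5302 genes, and 0 of 9 lower against 3.28%.

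**Figure D3:**
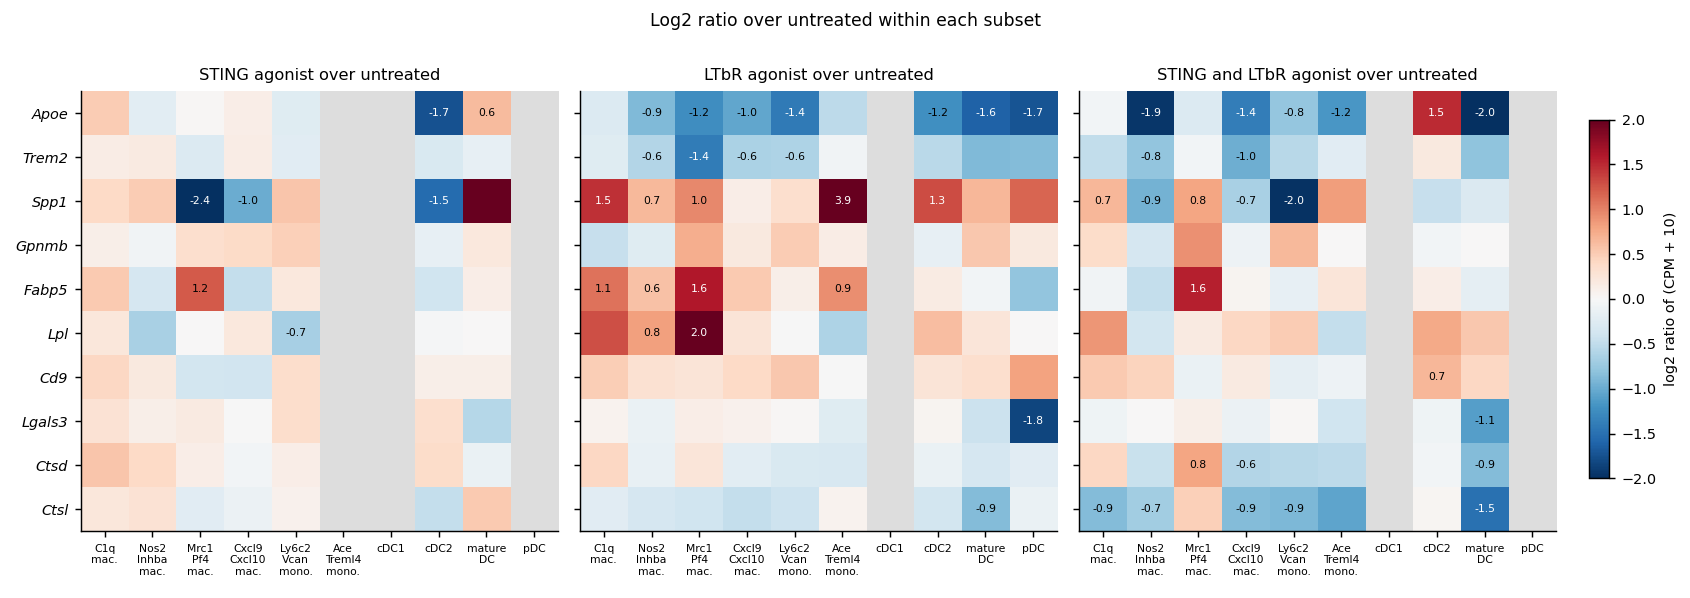
Log2 ratio of (CPM + 10) over untreated for each gene (rows) in each named subset (columns), 1 panel per treatment; numbers stand where a ratio passed 1.5-fold with at least 50 UMIs in 1 library, and grey marks subsets with fewer than 50 cells in a library. Under the LTbR agonist the Apoe row is below 0 in all 9 subsets shown and the Spp1 row above 0 in all 9, 7 of which reach 50 UMIs for Spp1.

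Since the subsets made up different shares of the class in each library, the class level was also computed with each subset at 1 common share. For the LTbR agonist, the log2 ratio of Apoe went from -0.84 as found to -0.60 at common shares, that of Trem2 from -0.72 to -0.49, that of Spp1 from 1.38 to 0.90 and that of Lpl from 1.31 to 1.09. The shares of the subsets alone, with subset levels held at 1 common value, gave -0.22, -0.20, 0.62 and 0.20. For these 4 genes the value at common shares was thus the larger part of the ratio. Under both agonists, Lpl went from 0.85 to 0.34 at common shares, with 0.49 from the shares alone, and Ctsl from -0.73 to -0.55, with -0.35. Of the 6 ratios past 1.5-fold in the class, 3 therefore passed it only with the subsets as found: Trem2 under the LTbR agonist, and Lpl and Ctsl under both agonists. Gpnmb under the LTbR agonist was 0.27 as found and -0.06 at common shares.

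**Figure D4:**
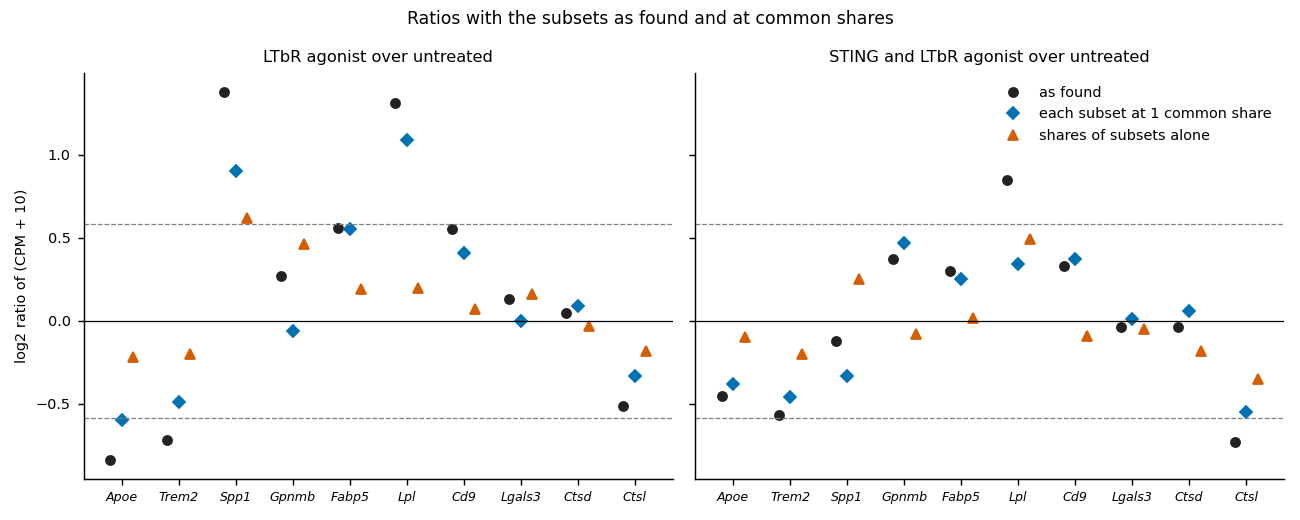
Log2 ratio of (CPM + 10) over untreated for each gene in the macrophage- or monocyte-like class as found (circles), with every subset at 1 common share (diamonds) and from the shares of the subsets alone (triangles), for the LTbR agonist and for both agonists. Lpl under both agonists is 0.85 as found and 0.34 at common shares.

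A summed level can come from many cells or few, so the share of cells with at least 1 UMI was counted in cells thinned to 1000 UMIs, which leaves out shallower cells. Apoe was detected in 57.3% (55.5 to 59.1), 54.1% (51.4 to 56.7), 34.4% (32.6 to 36.2) and 35.2% (33.0 to 37.5) of class cells, against 1.31 to 2.51% of T-like cells. The unthinned shares were 80.5%, 79.8%, 58.8% and 57.1%. Trem2 was detected in 12.2% (11.0 to 13.4), 12.7% (11.0 to 14.6), 6.15% (5.29 to 7.11) and 7.25% (6.07 to 8.57), against at most 0.233% of T-like cells. For both genes the libraries with the LTbR agonist had fewer cells with a UMI, as well as a lower summed level.

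Spp1 was detected in 10.3% (9.24 to 11.5) of class cells untreated, 14.0% (12.2 to 15.9) after the STING agonist, 22.2% (20.6 to 23.7) after the LTbR agonist and 11.7% (10.3 to 13.3) with both. T-like cells gave 5.51%, 6.40%, 3.22% and 4.95%, with median depths of 4164 to 5046.5 UMIs per cell before thinning, and these shares were not subtracted. Lpl was detected in 0.507% (0.284 to 0.835), 0.350% (0.114 to 0.814), 2.16% (1.65 to 2.77) and 2.30% (1.65 to 3.12), and in at most 0.119% of T-like cells. Ctsl was detected in 28.8%, 28.5%, 20.1% and 17.0% of class cells and in at most 1.01% of T-like cells. Ctsd was detected in 19.8 to 23.8% of class cells and 18.3 to 23.8% of T-like cells. The intervals of the class and the T-like cells overlapped in every library.

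**Figure D5:**
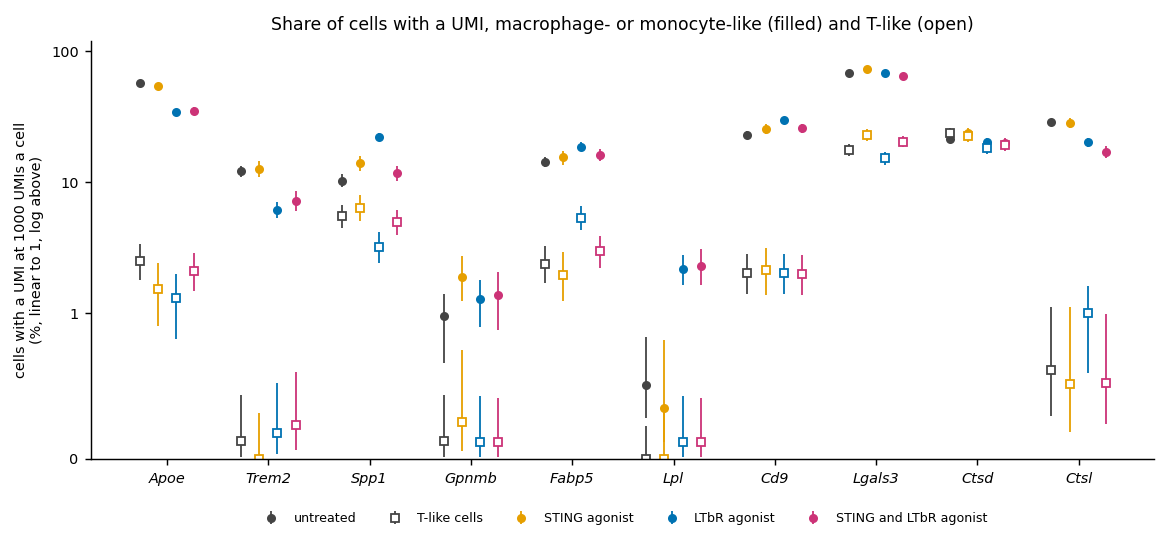
Percent of cells with at least 1 UMI of each gene after thinning each cell to 1000 UMIs, in the macrophage- or monocyte-like class and in T-like cells of each library, with exact binomial 95% intervals. Apoe falls from 57.3% of untreated class cells to 34.4% with the LTbR agonist, and Spp1 rises from 10.3% to 22.2%.

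The members differed in how evenly their UMIs were spread over class cells. Spp1 was the most concentrated of the 8 genes with over 1000 UMIs in every library, and its 10 top cells held 22.9%, 31.4%, 13.8% and 29.4% of its UMIs, and 47, 29, 89 and 29 cells held 50% of them. With the LTbR agonist 3.06% of class cells thus carried that part, against 1.54 to 1.97% in the other libraries. For Lgals3 the 10 top cells held 2.74 to 4.09%, and for Apoe 6.38%, 9.77%, 9.66% and 18.5%. The scarce genes Gpnmb (32.4 to 57.5%) and Lpl (32.0 to 58.6%) rested on few cells throughout.

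Detection in the same cells differed by pair. Pairs were read over the class cells of a library without regard to subset. Of 9 pairs read, 6 had the second gene more often in cells with the first than in cells without it in 4 of 4 libraries. Spp1 and Cd9, for example, were both highest in inflammatory macrophage-like cells. Whether the pairs also held within a subset was not tested, and no pairs of other genes were read beside them. After thinning to 2000 UMIs, Spp1 was detected in 23.7% of cells with Trem2 and 13.3% of cells without it in the untreated library. The corresponding shares were 30.8% and 14.4% with the STING agonist, 50.8% and 25.0% with the LTbR agonist, and 31.5% and 13.5% with both. Cd9 was detected in 48.8%, 57.5%, 69.2% and 59.0% of cells with Spp1, against 35.2 to 37.2% of cells without it. Of the cells with Gpnmb, 56.8 to 67.6% of 26 to 57 per library also had Fabp5, against 21.7 to 26.9% of the rest. For the 3 other pairs, all with Gpnmb or Lpl, this held in only 1 to 3 of 4 libraries. Gpnmb was detected in 1.34% of untreated cells with Trem2 and 1.29% without it, and in 1.21% and 2.09% with the STING agonist. The shares were 3.79% and 1.99% with the LTbR agonist and 2.96% and 2.04% with both. Lpl was detected in 1.18% of cells with Spp1 and 1.33% without it with the STING agonist, and in 2.81% and 3.09% with both agonists. It was the other way with the LTbR agonist (6.18% and 2.91%) and untreated (1.81% and 1.00%). Of the cells with Gpnmb, 0 to 2 per library had Lpl. Cells with at least 5 of the 10 genes were 21.5%, 26.6%, 21.0% and 15.5% of the class, 35.4%, 50.1%, 43.1% and 41.3% of C1q macrophage-like cells, and 35.0%, 46.4%, 31.9% and 17.8% of inflammatory macrophage-like cells. Under both agonists the inflammatory share, of 219 cells, was the lowest of the 4 libraries. The C1q share with both agonists rests on 63 cells beside 638 untreated. No intervals were computed for these shares, so the small C1q difference cannot be told from counting error.

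A list of 52 other genes of lipid handling, Trem2 signalling, the lysosome and osteopontin binding was read in the same class. Under the STING agonist 0 of the 49 measured were higher and 0 lower, where 0.134% and 0.0669% of all genes were. For the LTbR agonist 0 of 51 were higher against 0.902% of all genes, and 5 lower against 0.526%. Under both agonists 4 of 50 were higher against 1.70%, and 3 lower against 0.988%. The same shares of all genes stand beside the counts of the shorter lists below. These lists were also chosen with earlier results of these data known. Among genes for lipid uptake and storage, 2 of 10 were higher under both agonists: Fabp4, a fatty acid-binding protein, with 49, 50, 171 and 280 UMIs in the 4 libraries, and Cd36, a fatty acid and lipoprotein receptor, which went from 11.3 CPM with the STING agonist to 36.6 CPM with both. Their log2 ratios under both agonists were 1.32 (1.14 to 1.49) and 1.08 (0.90 to 1.27). At common subset shares these were 0.34 and -0.08. Pparg, a nuclear receptor whose known targets include both genes, was the 1 of 7 transcription factors that was higher, at 5.06, 4.23, 11.5 and 21.0 CPM (1.04, 0.85 to 1.23), and was -0.02 at common shares. Pparg and Cd36 lead the Ace Treml4 monocyte-like cluster, which had 50, 25, 184 and 195 cells in the 4 libraries.

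Among genes for lipid efflux, Abca1, the cholesterol exporter that loads apolipoprotein E, was 434, 446, 247 and 268 CPM, with log2 ratios of -0.79 (-0.85 to -0.73) under the LTbR agonist and -0.68 (-0.75 to -0.61) under both. It was 1 of 2 lower genes of the 6 on this list under the LTbR agonist, and 1 of 6 under both. The other under the LTbR agonist was Mylip at -0.77, which is on the list but is not itself a lipid exporter. Apoc2, the apolipoprotein that activates lipoprotein lipase, was 135, 119, 82.7 and 84.0 CPM, with -0.64 and -0.62, and was the 1 of 5 measured genes of the Trem2 list to be lower. Of 16 lysosomal genes only Lgmn, the protease legumain, was lower, at 795, 685, 523 and 444 CPM (-0.60 and -0.83). Itga9, an osteopontin-binding integrin chain, was -0.67 under the LTbR agonist, and Itga4, another, 0.61 under both, which were the calls among 6 receptors. Mylip, Itga9 and Itga4 were named after their values were seen. At common subset shares Abca1 (-0.61) and Mylip (-0.65) under the LTbR agonist and Lgmn (-0.79) under both stayed past 1.5-fold. The other calls did not: Apoc2 was -0.41 and -0.50, Abca1 under both -0.48, Lgmn under the LTbR agonist -0.47, Itga9 -0.30 and Itga4 0.37.

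Over 49 combinations of subset or cluster and library with at least 50 cells, genes whose level followed the mean of the 10 members closely were Impdh1 (Spearman correlation 0.92), Vat1 (0.90), Fblim1 (0.89) and Cox4i2 (0.87), among 9833 genes compared. The points share libraries and total counts, so these are descriptions. Of the members, Ctsd (0.95), Trem2 (0.84) and Spp1 (0.78) followed the mean of the other 9, whereas Lpl (0.29) and Fabp5 (0.16) hardly did. Apoe and Trem2 correlated at 0.86, and Fabp5 and Ctsl at -0.22.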

How the data were processed

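Live CD45-positive cells of pooled tumours were captured with a 10x 5′ kit, 1 library per group. The authors aligned reads to mm10 with Cell Ranger 7.1.0 (per the submitters' processing notes) and deposited 1 matrix of raw UMI counts, 32285 genes by 24839 barcodes, in which the barcode suffix gives the library as labelled. The values were whole numbers that summed to 192887078 UMIs, and 0 columns of per-sample values were left unused. The study's limits of 300 to 5000 genes and at most 6% mitochondrial UMIs left 23011 cells (92.6%).

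Cells were clustered with Scanpy 1.11.5 and leidenalg 0.10.2 on 2000 variable genes (30 principal components, 20 neighbours, resolution 1), without the 10 members and 633 antigen receptor genes. This gave 27 clusters, and macrophages, monocytes and dendritic cells were clustered again into 19. Clusters were named from marker lists, 6 stayed unnamed, and the names are rebuilt here, not the study's. Doublets were kept in the main values: cells holding markers of 2 classes (87, 19, 83 and 101 in the class) were left out as an alternative, and Scrublet at an expected rate of 0.05 gave only 2 to 5 class cells per library above a score of 0.2. Cell barcodes found in more than 1 library numbered 246 after filtering.

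UMI counts were summed per library and subset. Log2 ratios used CPM + 10, with exact Poisson intervals for counts and exact binomial (Clopper-Pearson) intervals for shares, from SciPy 1.17.1, both at 95% and both for counting error only. Genes were set against the 1.5-fold mark with at least 50 UMIs in 1 of the libraries compared. All 10 members were named by rule, as were up to 6 genes of the other lists with the largest ratios past the mark under both agonists and the 5 genes most correlated with the members, of which 1 is not reported here. The members and lists were chosen with earlier results of these data known. The script was tested on simulated counts. Alternatives were other pseudocounts, normalization, filters, cluster resolutions, thinning, common subset shares and sets of cells. Positions of genes are from GENCODE vM21 on GRCm38 and upstream sequences from RefSeq. Which of the study's independent experiments gave these libraries is not given in the sources used here.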

Additional observations from a re-analysis of the deposited data

Results flagged for a closer look

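In 5 cases the ratio over untreated went past 1.5-fold upward in one cell subset and past it downward in another in the same comparison. With 1 library per group none of these differences between subsets was tested.

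Apoe under the STING agonist had a log2 ratio of 0.64 in mature dendritic-like cells and -1.74 in cDC2-like cells. The first rested on 153 UMIs, 100% of them in 10 cells, and was -1.01 without those cells. The second set 62 UMIs against 715. Under both agonists the order was turned, with 1.49 in cDC2-like cells (991 UMIs, 82.8% of them in 10 cells, and 0.71 without those) and -1.99 in mature dendritic-like cells (20 against 269 UMIs).

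Spp1 under the LTbR agonist had 3.87 in Ace Treml4 monocyte-like cells, from 224 against 2 UMIs, and -1.07 in T-like cells, from 907 against 2091 UMIs. Without the 10 top cells these were 0.17 and -1.43. Under both agonists Spp1 had 0.79 in resident-like macrophages (676 against 79 UMIs) and -1.97 in Ly6c2 Vcan monocyte-like cells (36 against 510 UMIs). The first was 2.78 without the 10 top cells, which were 10 of 320 against 10 of 51 untreated cells, an unequal removal.

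Ctsd under both agonists had 0.79 (0.42 to 1.16) in resident-like macrophages and -0.86 (-1.70 to 0.06) in mature dendritic-like cells, the latter from 8 against 54 UMIs with an interval that reached 0.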

How the results depend on the processing

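The 6 class ratios past 1.5-fold kept their direction under all 17 alternatives, of which 2 (named subsets only, and leaving out the cluster led by heat shock genes) were chosen after seeing the data. All 6 stayed past the fold except that 3 did with a pseudocount of 50 CPM and 3 with subsets at pooled shares, where Trem2 under the LTbR agonist and Lpl and Ctsl under both fell below it. The ranges were -1.43 to -0.60 for Apoe, -0.92 to -0.49 for Trem2, 0.90 to 1.54 for Spp1 and 0.52 to 2.11 for Lpl under the LTbR agonist, and 0.30 to 1.48 for Lpl and -0.84 to -0.55 for Ctsl under both agonists. With the STING agonist, 1 member was higher in place of 0 with a pseudocount of 1 CPM, with the mean of CPM per cell, at pooled shares and in cells thinned to 1000 UMIs. With the LTbR agonist, 1 in place of 2 was higher with a pseudocount of 50 CPM, and 1 in place of 2 lower with that pseudocount and at pooled shares. With both agonists, 2 in place of 1 were higher with a pseudocount of 1 CPM, and 0 with 50 CPM and at pooled shares. In that comparison 2 in place of 1 were lower with a pseudocount of 1 CPM, median-of-ratios size factors, without cells with markers of 2 classes, at resolution 0.5 and in thinned cells, 3 without the 10 top cells of the gene and in named subsets only, and 0 at pooled shares. The cause was not tested. Within subsets, leaving out the 10 top cells of each library, also chosen after seeing the data, kept 8 of 11 higher and 11 of 13 lower calls under the LTbR agonist, 4 of 6 and 17 of 18 under both, and 1 of 2 and 4 of 5 under the STING agonist. It turned Spp1 in C1q macrophage-like cells under both from 0.66 to -2.63 and Apoe in mature dendritic-like cells under the STING agonist from 0.64 to -1.01. The number left out was the same whatever the library's size, for example 10 of 63 against 10 of 651 C1q macrophage-like cells. The calls kept and the turned signs may therefore in part reflect unequal removal. No paired analysis was possible because each group has 1 library, and no replicate could be left out for the same reason. Depth limits Gpnmb, Lpl and most dendritic-like values, which rest on few UMIs.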
